A study of Arabidopsis thaliana with 3 samples.

Results

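ATHB2 (AT4G16780, also called HAT4) and HAT1 (AT4G17460, also called JAIBA) are paralogous transcription factors of class II of the plant homeodomain-leucine zipper (HD-ZIP) family. The genes were chosen by identifier, and every table entry of either was taken, which gave 2 of 6814 genes and 3 of 14437 entries. The data came from PEAT, paired-end analysis of transcription start sites, which reads the 5′ ends of RNA molecules. One library was made from whole 10-day-old wild-type Col-0 seedlings in white light, 1 after 45 min and 1 after 90 min of light enriched in far-red. The series asks how a microprotein encoded by ATHB2 acts in development and in the shade response. Its lines that lack or overexpress that microprotein were not analysed here, and all 3 libraries are wild type. With 1 library per condition, the tests below compare the reads of libraries rather than conditions, and the spread between replicates is unknown.

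In HD-ZIP proteins the homeodomain binds DNA and the leucine zipper next to it joins a pair of proteins into a dimer, the form that binds. A microprotein keeps an interaction domain without the rest of the protein and can tie up full-length partners. Far-red-rich light under a canopy inactivates phytochrome B, which frees bHLH factors of the PIF group to act, and ATHB2 is a classic early target of this pathway that promotes elongation growth. HAT1 is a close relative that belongs to the same response, and HD-ZIP II proteins act mainly as repressors of transcription, including of their own genes.

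The table is a selection of transcripts and held between 3440656 reads (white light) and 4373900 reads (45 min) when each gene was counted through 1 transcript. For each transcript the table lists a first start window, 1 or more second windows, and the coding length that remains downstream of each second window. Levels are reads per 1000000 table reads (RPM). Of the green-tissue markers, RCA and LHCB4.1 were in the table (2 of 4), with a summed level between 15959 and 18728 RPM per library, lowest at 45 min. Of the 6 root markers only PHO1 was listed, at 91.0 RPM under white light, then 49.6 and 73.7 RPM. The part of the tissue mix in the results below was not tested. In whole seedlings, fewer cells of a type and less RNA per cell cannot be told apart.

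Both genes lie on chromosome 4 and have coding sequences of nearly equal length, 855 bases in ATHB2 and 849 in HAT1. Each is listed through 1 transcript. Neither overlaps another gene of the RefSeq TAIR10.1 annotation (0 overlapping genes each), and no other gene has the same read counts. The second windows of the paralogues cut the coding sequence at different places. ATHB2 has 2 of them, which lie 420 and 477 coding bases downstream of the start codon, 57 bases apart. They leave 435 bases (50.9% of the coding sequence, 145 whole codons) and 378 bases (44.2%, 126 whole codons). HAT1 has 1 second window, 578 bases into its coding sequence, which leaves 271 bases (31.9%, 90 whole codons and 1 base more). The median entry of the whole table leaves 47.8%. Of all entries, 30.2% leave a smaller portion than the HAT1 window, and 53.7% and 45.2% a smaller portion than the ATHB2 windows.

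**Figure D1:**
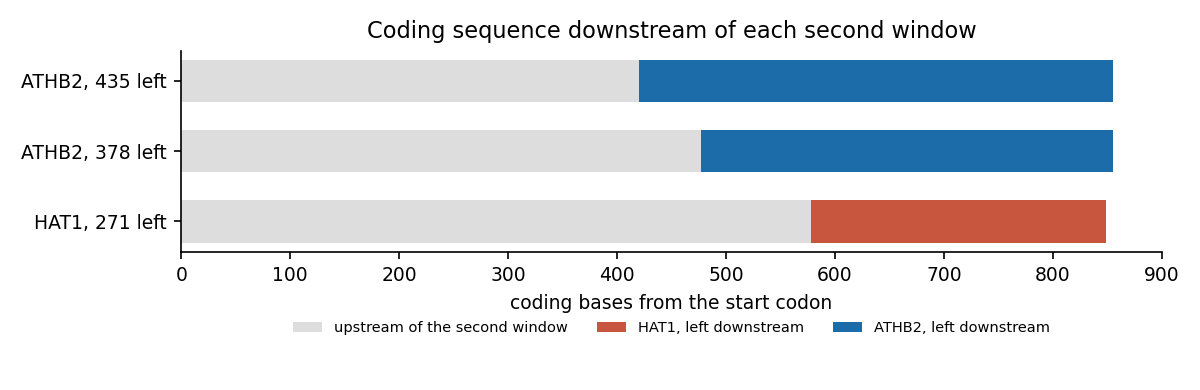
Coding sequence of ATHB2 and HAT1 in bases from the start codon, 1 bar per second window, with the portion upstream of the window in grey and the portion left downstream in colour. The HAT1 window leaves 271 bases, fewer than the 435 and 378 bases left by the ATHB2 windows.

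These places separate the domains listed downstream of each window. For the ATHB2 window with 435 bases left, the authors' deposited table lists the homeobox associated leucine zipper with an overlap value of 100, the homeobox domain with 77 and the homeobox KN domain, a related homeodomain model, with 100. For the ATHB2 window with 378 bases left, the authors' deposited table lists the zipper with 100 and the homeobox KN domain with 80, and no longer the homeobox domain. For the HAT1 window the authors' deposited table lists the zipper with 93 and a domain of unknown function (DUF1875) with 82, and no homeobox model of either kind. The meaning of the overlap value is not stated in the file. The HAT1 window is thus the only 1 of the 3 with the dimerisation domain listed and no homeodomain model beside it. Whether the ATHB2 windows leave a whole homeodomain cannot be told from the list, given homeobox values of 77 and 80. No start codon downstream of a window was located, so the listed domains need not be those of a protein. Whether any of these windows is a start of transcription or is translated was not tested.

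The first comparison was the level of each transcript. ATHB2 had 322 white light reads, 6600 reads at 45 min and 2719 at 90 min, which is 93.6, 1509 and 659 RPM. HAT1 had 118, 431 and 140 reads, which is 34.3, 98.5 and 33.9 RPM. Both genes were highest at 45 min, and at 90 min ATHB2 was still above its white light level while HAT1 was back at it. ATHB2 was 16.1-fold higher at 45 min than in white light (95% counting interval 14.4 to 18.1) and 7.04-fold higher at 90 min (6.27 to 7.93). HAT1 was 2.87-fold higher at 45 min (2.34 to 3.55), and its ratio at 90 min was 0.990 (0.769 to 1.28). Between 45 and 90 min both were lower, ATHB2 by 2.29-fold (2.19 to 2.39) and HAT1 by 2.90-fold (2.39 to 3.54).

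Against the table as a whole, 10.9% of 6113 genes were at least 2-fold higher at 45 min and 13.3% of 6078 at 90 min, and 6.65% of 6297 were at least 2-fold lower at 90 than at 45 min. The 4421 genes that had 100 or more white light reads were ranked by ratio. HAT1 ranked 25 from the top at 45 min and 1816 at 90 min, where ATHB2 ranked 1 and 3. From the bottom of the 90 over 45 min ratios HAT1 ranked 102 and ATHB2 172. The median of these genes was -0.18 on the log2 scale at 45 min and -0.16 at 90 min. Genes with fewer white light reads were not ranked, and some of them rose more than ATHB2 at 90 min. Among the shade genes described below, PIL1 was 18.3-fold, CKX5 11.4-fold and YUC8 9.60-fold higher at 90 min, where ATHB2 was 7.04-fold higher. Only the PIL1 interval (10.7 to 33.9) lay above that of ATHB2 at 90 min, while those of CKX5 (6.03 to 24.4) and YUC8 (7.47 to 12.5) overlapped it. At 45 min all of these ratios were below that of ATHB2, but only the YUC8 interval (2.50 to 4.34) lay wholly below. Those of PIL1 (6.61 to 21.1) and CKX5 (6.24 to 25.1) contained the ATHB2 ratio, so their order is not resolved. The intervals cover counting error only, because the spread between seedling samples was not measured. They also treat each read as an independent molecule. Reads amplified without molecular identifiers are not, so the intervals may be too narrow even for counting error.

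**Figure D2:**
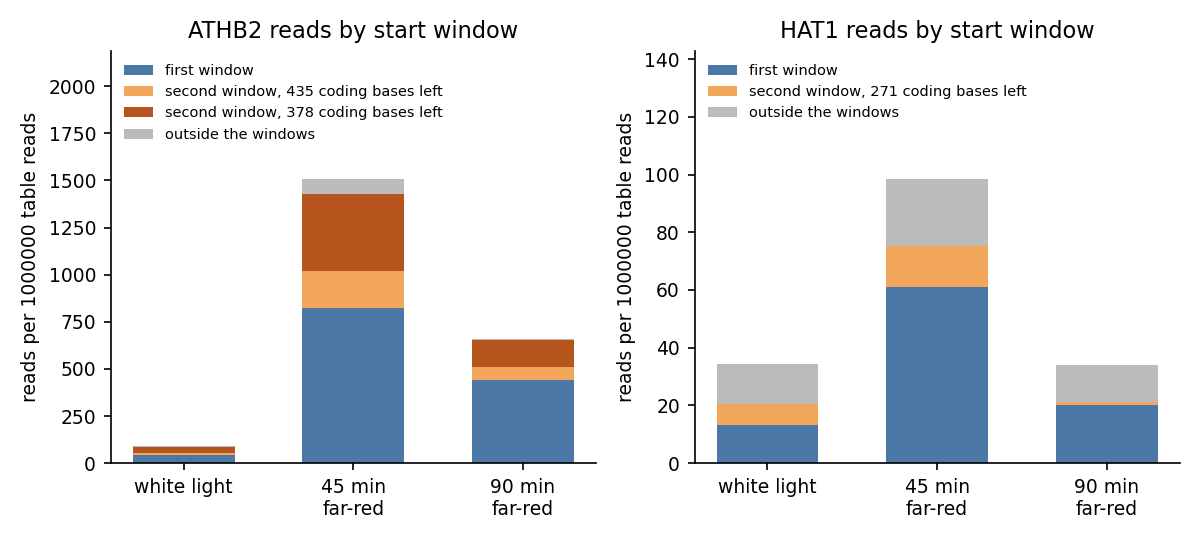
Reads per 1000000 table reads of ATHB2 (left) and HAT1 (right) in the 3 libraries, stacked by first window, each second window and reads outside the windows, on separate linear scales from 0. Both genes are highest at 45 min, at 1509 and 98.5 RPM, and at 90 min HAT1 is back at 33.9 RPM while ATHB2 is at 659 RPM.

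The paralogues were then set against each other within each library, which needs no scaling by depth. There were 2.73 ATHB2 reads per HAT1 read under white light, 15.3 after 45 min and 19.4 after 90 min. PEAT counts 5′ ends, and the coding lengths are nearly equal, so these ratios were not divided by length. The ratio rose 5.61-fold at 45 min (95% interval 4.41 to 7.11, Fisher's exact test, adjusted over 3 pairs of libraries p = 1.18e-38). It was 7.12-fold above white light at 90 min (5.37 to 9.41, Fisher's exact test, adjusted p = 1.04e-40). From 45 to 90 min the ratio changed 1.27-fold (1.04 to 1.55, Fisher's exact test, adjusted p = 0.0174). That last value depended on which reads were counted, being 1.62-fold on first-window reads (1.25 to 2.11) and 5.14-fold on second-window reads (1.90 to 19.5). On second-window reads the ratio at 90 min was 39.4-fold above white light (13.3 to 157), which rests on 4 HAT1 reads at 90 min. On all transcript reads, most of the gap between the paralogues lay between white light and 45 min, and it was larger than counting error.

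The next values separate the windows. The HAT1 first window held 45 white light reads, 267 reads at 45 min and 83 at 90 min. Its second window held 26, 62 and 4 reads. The first window was 4.67-fold higher at 45 min (3.39 to 6.55) and 1.54-fold higher at 90 min (1.06 to 2.26), both above white light by more than counting error. The second window was 1.88-fold higher at 45 min (1.17 to 3.09) and then 7.79-fold lower than white light at 90 min (2.70 to 30.7). The near-equal HAT1 totals of white light and 90 min thus combined a higher first window and a lower second window, the latter resting on 4 reads.

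In ATHB2 every window was higher in far-red, by different amounts. In the order white light, 45 min, 90 min, the first window held 152, 3604 and 1811 reads. The counts for the upstream second window (435 bases left) were 25, 865 and 294. Those for the downstream one (378 bases left) were 120, 1785 and 584. At 45 min the window with 435 bases left was 27.2-fold higher (18.3 to 42.3), the first window 18.7-fold (15.9 to 22.1) and the window with 378 bases left 11.7-fold (9.72 to 14.2). At 90 min these values were 9.81-fold (6.51 to 15.4), 9.94-fold (8.42 to 11.8) and 4.06-fold (3.33 to 4.98). The interval of the window with 378 bases left lies below those of the others at both times, while the intervals of the window with 435 bases left and the first window overlap.

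**Figure D3:**
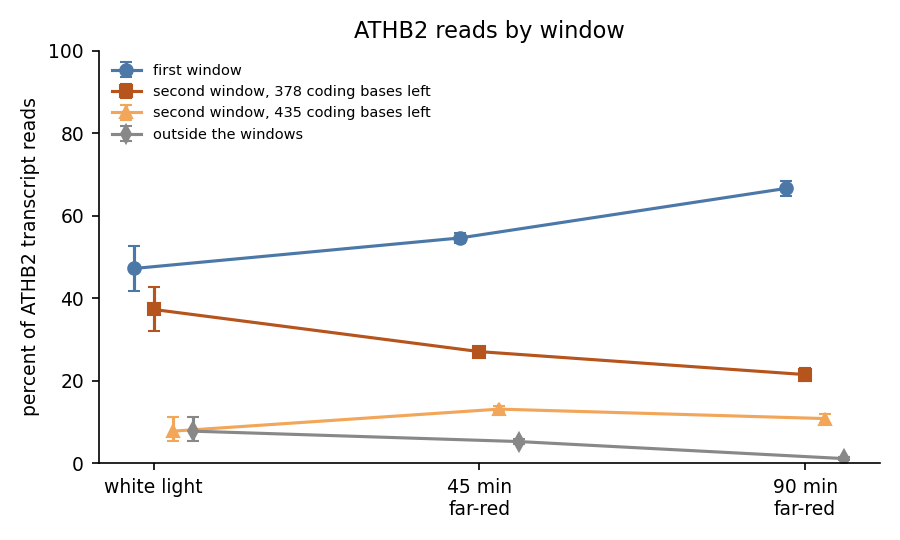
Percent of all ATHB2 transcript reads in the first window, each second window and outside the windows, by library, with 95% Wilson intervals. The first window goes from 47.2% to 66.6% and the window with 378 coding bases left from 37.3% to 21.5%, while the window with 435 bases left lies between 7.76% and 13.1%.

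Within the second windows of ATHB2, the balance moved toward the upstream window, the one that keeps the homeobox domain on the list. In white light, 25 of 145 second-window reads fell there, or 17.2% (95% Wilson interval 11.96% to 24.2%). It held 32.6% at 45 min (865 of 2650 reads, 30.9% to 34.5%) and 33.5% at 90 min (294 of 878 reads, 30.4% to 36.7%). The far-red intervals overlapped, and that of white light lay below both. The rise over white light was 15.4 points after 45 min and 16.2 points after 90 min (adjusted p = 1.25e-04 and 9.88e-05, Fisher's exact test). Between the far-red libraries 0.844 points separated the values (adjusted p = 0.717, Fisher's exact test). Such changes were common, since 73% of 1713 genes with several second windows passed the same threshold (adjusted p under 0.05 and at least 10 points) at 45 min, 78.8% of 1819 at 90 min and 66% of 1870 between the far-red libraries. The ATHB2 changes from white light are of a kind seen in most such genes, and 70.1% and 73.8% of them changed by at least as many points.

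The share of window reads in the second windows was then compared between the paralogues. In HAT1 it was 36.6% in white light (26 of 71 reads), 18.8% at 45 min (62 of 329) and 4.60% at 90 min (4 of 87, 95% Wilson interval 1.80% to 11.2%). In ATHB2 it was 48.8%, 42.4% and 32.7%. Both shares were lower in each far-red library than in white light, and the HAT1 share was below the ATHB2 share in all 3 libraries. The difference, ATHB2 minus HAT1, was 12.2 points in white light (95% interval -0.714 to 23.9, Fisher's exact test, adjusted over 3 libraries p = 0.0847), which did not pass the test at this depth. It was 23.5 points at 45 min (18.8 to 27.6, Fisher's exact test, adjusted p = 3.10e-18) and 28.1 points at 90 min (21.2 to 31.4, Fisher's exact test, adjusted p = 7.27e-10). These shares sum 2 second windows in ATHB2 and hold 1 in HAT1. When only the most-read second window stood for each gene, the difference was smaller in every library. In time order it was then 7.50, 14.3 and 19.8 points. The adjusted p-values of Fisher's exact test were 0.283, 7.78e-08 and 3.06e-06, so white light again did not pass.

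Each share was also compared with white light, with p-values adjusted over all genes tested. That of HAT1 moved by -17.8 points after 45 min and by -32.0 points after 90 min (adjusted p = 0.00371 and 6.32e-07, Fisher's exact test). That of ATHB2 moved by -6.45 points, under the minimum of 10 points, and by -16.2 points (adjusted p = 0.0419 and 1.27e-07, Fisher's exact test). A lower share past the threshold was seen in 34.1% of 6095 genes at 45 min and in 30.6% of 6094 at 90 min, and a change of either direction in 65.9% and 68.1%. Between the far-red libraries 57.5% of 6357 genes passed. Of all genes tested, 51.7% changed by at least as many points as HAT1 at 45 min and 31.6% at 90 min. Against this background the fall in neither gene stands apart from the genes of the table.

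Whether the paralogues changed by different amounts was tested directly, with an exact test of equal odds ratios chosen after the shares had been seen. The odds of a second-window read were 0.771 times those of white light in ATHB2 at 45 min and 0.402 times in HAT1, a quotient of 1.92 (95% interval 1.05 to 3.51, exact test, adjusted over 3 pairs p = 0.0375). At 90 min they were 0.508 and 0.0834 times, a quotient of 6.09 (1.95 to 19.04, exact test, adjusted p = 0.00286). From 45 to 90 min the quotient was 3.18 (1.12 to 9.03, exact test, adjusted p = 0.0375). On the odds scale the HAT1 share thus fell further than the ATHB2 share in these libraries. The quotients that involve 90 min rest on 4 HAT1 second-window reads there. How often other pairs of genes differ this much was not tested. With the window with 378 bases left standing for ATHB2, the quotient at 45 min was 1.56 and no longer passed (exact test, adjusted p = 0.156).

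**Figure D4:**
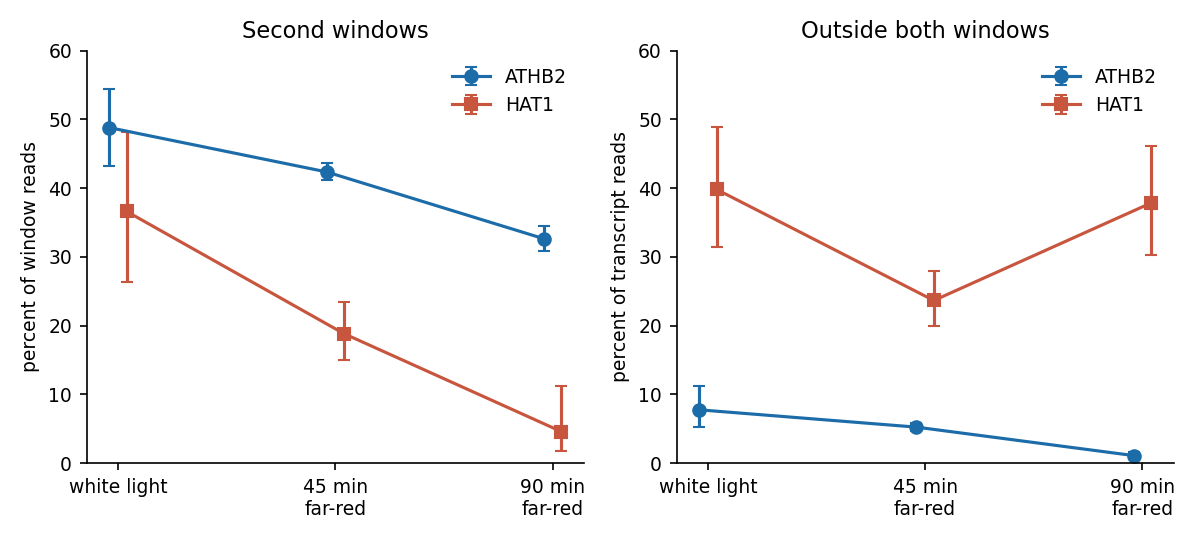
Left, percent of window reads in the second windows, and right, percent of transcript reads outside both windows, for ATHB2 and HAT1 by library, with 95% Wilson intervals. The HAT1 second-window share goes from 36.6% to 4.60% and the ATHB2 share from 48.8% to 32.7%, and HAT1 has 23.7% to 39.8% of its reads outside the windows where ATHB2 has 1.10% to 7.76%.

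The reads outside both windows also set the paralogues apart. In HAT1 they were 39.8% of transcript reads in white light (47 of 118, 31.5% to 48.8%), 23.7% at 45 min (102 of 431, 19.9% to 27.9%) and, later, 37.9% at 90 min (53 of 140, 30.2% to 46.1%). In ATHB2 they were 7.76% (25 of 322 reads), 5.24% (346 of 6600) and 1.10% (30 of 2719). The median gene of the table had 8.11%, 20.8% and 14.7%, so HAT1 lay above the median in white light and at 90 min and within counting error of it at 45 min, and ATHB2 lay below it in far-red and within counting error of it in white light. The difference between the paralogues, ATHB2 minus HAT1, was -32.1 points in white light (Fisher's exact test, adjusted over 3 libraries p = 4.04e-14), -18.4 points at 45 min (5.91e-34) and -36.8 points at 90 min (2.82e-52).

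At 45 min the outside share of HAT1 moved by -16.2 points (adjusted p = 0.00134, Fisher's exact test), in a comparison where 10.8% of 6304 genes had a lower and 40.9% a higher outside share past the threshold. From 45 to 90 min it moved by 14.2 points (adjusted p = 0.00318, Fisher's exact test), where 13.1% of 6535 genes had a higher and 30.7% a lower one. At both steps HAT1 moved in the less common direction. At 90 min its outside share was -1.97 points from white light (adjusted p = 0.971, Fisher's exact test), where 15.4% of 6235 genes had a lower one past the threshold. When second-window reads were taken as a share of all HAT1 reads, they were 22.0%, 14.4% and 2.86% in time order. The change at 45 min then fell short of the threshold (-7.65 points, Fisher's exact test, adjusted p = 0.0637).

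The family and the response were described from lists. Of 10 HD-ZIP II genes the table held 4, namely ATHB2, HAT1, HAT14 and HAT22. At 45 min ATHB2 and HAT1 were at least 2-fold higher and 0 of the 4 were 2-fold lower, and at 90 min only ATHB2 was 2-fold higher and again 0 were 2-fold lower. Among all genes compared, 10.9% were 2-fold higher and 10.2% 2-fold lower at 45 min, and 13.3% were higher and 11% lower at 90 min. The median log2 ratio of the 4 genes was 1.12 at 45 min and -0.01 at 90 min. HAT14, another class II member, had 35, 77 and 42 reads, which is 1.73 times white light at 45 min (1.15 to 2.66) and 1.001 times at 90 min (0.624 to 1.61). HAT22, a class II member linked to leaf senescence, had 749, 588 and 569 reads and was lower in both far-red libraries, with ratios of 0.618 (0.553 to 0.689) and 0.634 (0.567 to 0.708). HAT14 therefore had a peak at 45 min like HAT1 in its counts, and HAT22 had none.

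The second-window share of HAT22 moved by -1.40 points after 45 min and -3.42 points after 90 min, neither past the test (Fisher's exact test, adjusted p = 0.685 and 0.305). In the HAT14 transcript used here (AT5G06710.1) each second window held reads in a different library. The window with 289 bases left held all 35 white light reads, that with 695 bases left held 16 reads at 45 min, and that with 442 bases left 23 reads at 90 min. Every other count of these windows was 0, which allows a share of up to 8.57% of transcript reads under white light (3 of 35 reads), 3.90% after 45 min and 7.14% after 90 min. The first window of HAT14 held 0, 43 and 19 reads. Of the 4 family genes, 2 passed the threshold for a changed share at 45 min and 3 at 90 min, all of them lower, against the shares of all genes given above.

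Of a list of 15 shade genes the table held 6, and the other 4 beside the paralogues were set against them. PIL1, a bHLH relative of the PIFs, had 14, 202 and 307 reads. HFR1, a bHLH protein that restrains PIFs, had 620, 1704 and 3146 reads. YUC8, an enzyme of auxin synthesis, had 67, 279 and 771 reads. CKX5, which breaks down cytokinin, had 10, 150 and 137 reads, and it overlaps 3 other annotated genes, which leaves its reads uncertain. All 4 were at least 2-fold above white light at both times, as were 10.9% of all genes at 45 min and 13.3% at 90 min, and the ratios of PIL1 and CKX5 rest on 14 and 10 white light reads. From 45 to 90 min PIL1, HFR1 and YUC8 were higher, by 1.61-fold (1.34 to 1.93), 1.96-fold (1.84 to 2.08) and 2.93-fold (2.55 to 3.37), and the CKX5 ratio was 0.968 (0.763 to 1.23). ATHB2 and HAT1 were thus the 2 of these 6 genes with a lower level at 90 than at 45 min beyond counting error.

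**Figure D5:**
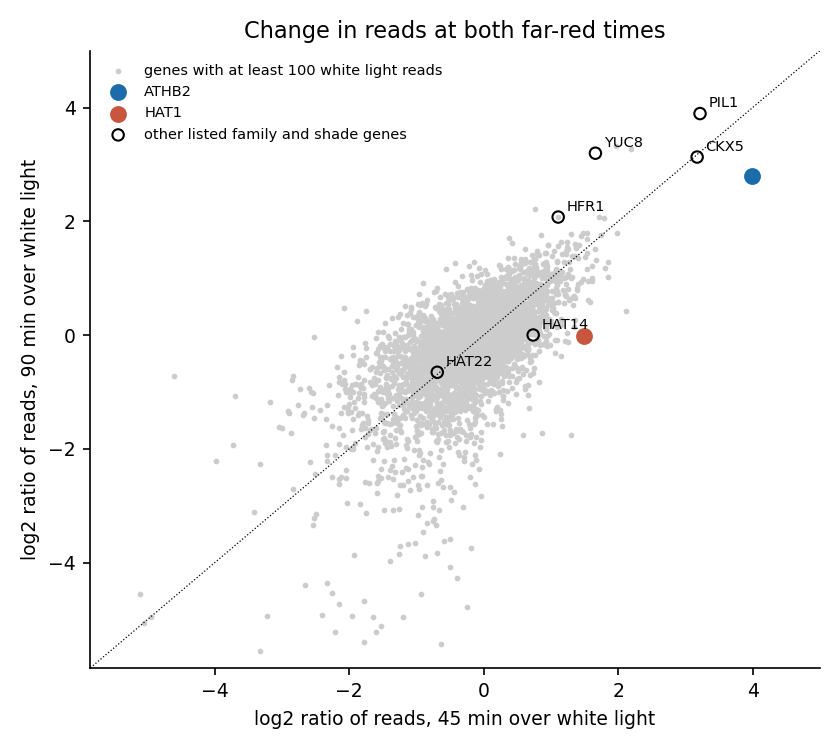
Log2 ratio of reads over white light at 45 min (x axis) and at 90 min (y axis) for the 4421 ranked genes (100 or more white light reads) in grey, with ATHB2, HAT1 and the other listed genes marked and equal ratios on the dotted line. ATHB2 and HAT1 lie below the line, and PIL1, HFR1 and YUC8 above it, and all ratios share the white light library.

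The genes most like each paralogue were found by the distance between their pairs of log2 ratios to white light, which rest on 3 libraries. Only genes with at least 100 white light reads were ranked. The closest of these to ATHB2 were ACS8, an enzyme of ethylene synthesis, at a distance of 1.86 log2 units, then AT5G02540 (2.09), AT1G67680 (2.25), AT5G28300 (2.32) and AT1G73480 (2.40). ACS8 had 122, 725 and 1446 reads and was 4.67-fold and 9.89-fold above white light, so its higher time was 90 min. Of these 5 genes only AT1G67680 was lower at 90 than at 45 min in its ratio (0.877, 0.773 to 0.995). HAT1 had close neighbours, namely AT5G10780 (0.222), VPS35B (0.263), LPAT5 (0.270), AT1G48860 (0.304) and INO80 (0.317). VPS35B, a subunit of the retromer complex, had 137, 417 and 169 reads. INO80, a chromatin remodeller, had 189, 622 and 274 reads. Both overlap 1 other annotated gene, so their reads are uncertain. Genes below this minimum lay closer to ATHB2 than ACS8 did. The 5 closest were EMB2752 (0.159), MTM2 (0.258), MFDX1 (0.274), FZL (0.277) and RABH1c (0.284). None of them is in the shade list, and each rests on only 2 to 5 white light reads. CKX5 (0.884, 10 white light reads) and PIL1 (1.34, 14 reads) were also closer than ACS8. Without the minimum HAT1 too had closer genes, the first being NUDT8 (0.0549, 27 white light reads). A transient level of the HAT1 kind was thus found in other genes of the table.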

How the data were processed

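PEAT libraries of 3 seedling samples, grouped by the treatment in the labels, were analysed from 1 table. The authors deposited raw read counts per library for each transcript, its first window and each second window, per the file headers. Per the file headers, the authors deposited p-values of a Fisher test with Benjamini-Hochberg values, and fold ratios, which recomputation showed to be of raw counts. The submitters' processing notes name FastQC, cutadapt, HISAT2 2.0.5, SAMtools 0.1.19, bedtools 2.17.0 and the builds TAIR9 and TAIR10. The window width and the selection of entries are not given in the sources used here. The smallest transcript held 100 reads.

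The transcript with the most reads stood for each gene, and second windows were summed. Shares were tested with a two-sided Fisher's exact test (scipy 1.17.1) over all genes with at least 20 reads in both libraries, adjusted by Benjamini-Hochberg, and called at an adjusted p under 0.05 and 10 points. The scripts were tested on simulated data. Levels used a pseudocount of 1 RPM on the log2 scale, and folds and their intervals used none. Intervals are 95%, Wilson for shares, exact binomial for folds, Newcombe for differences of shares and normal on the log scale for quotients of odds ratios. Beside the members, genes were named if in a list (HD-ZIP II, shade, green tissue, root), if a zipper was listed downstream, or among the 5 nearest genes. RefSeq matched 6799 genes. Members, lists and tests were chosen with earlier results of these data known. The tests of window balance, of reads outside windows and of the difference in change were chosen after the values were seen.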

Additional observations from a re-analysis of the deposited data

Results flagged for a closer look

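The far-red libraries differed from each other in 4 values, tested by Fisher's exact test between 45 and 90 min with adjustment over all genes tested. The second-window share changed from 45 to 90 min by -9.72 points in ATHB2 and by -14.2 points in HAT1 (Fisher's exact test, adjusted p = 5.56e-17 and 0.00154). A change of at least 10 points past the test was seen in 57.5% of 6357 genes in this pair. The share of reads outside the windows changed by -4.14 points in ATHB2 (Fisher's exact test, adjusted p = 5.14e-23) and by 14.2 points in HAT1 (exact test, adjusted p = 0.00318). Both ATHB2 changes were under the minimum of 10 points and so did not pass the threshold. For the share outside the windows, 30.7% of 6535 genes had a lower and 13.1% a higher share past the threshold. With 1 library per time, spread between libraries and time in far-red cannot be told apart.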

How the results depend on the processing

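Of 102 alternative values for 36 results, 84 kept their call, stayed within their interval or, for counts of genes, within 1.5 times. Some of the 84 could hardly change. HAT1 has 1 second window, so its most-read window gives the same share. A changed minimum of reads left the counts of both genes as they were and altered only the adjustment of p. The counts of genes that differed at least 2-fold ranged from 1041 to 1702 around 1292 at 45 min, and from 673 to 1161 around 905 between the far-red libraries. Counting only first-window reads moved the log2 ratio of ATHB2 to 4.19 at 45 min, 3.28 at 90 min and -0.91 for 90 over 45 min, and that of HAT1 to 2.14 and 0.59 over white light. Counting only second-window reads gave 3.81, 2.31 and -1.50 for ATHB2 and 0.83, -2.12 and -2.95 for HAT1. The scalings and the pseudocount kept every log2 ratio of ATHB2 and HAT1 within its interval. With the most-read second window alone, ATHB2 moved by -11.0 points at 45 min and passed, and the quotient of odds ratios at 45 min fell to 1.56 and did not. The differences between the paralogues in second-window share shrank to 7.50, 14.3 and 19.8 points in time order, with the same calls. As a share of all transcript reads, HAT1 moved by -7.65 points at 45 min and did not pass, and the white light difference between the paralogues was 22.997 points and passed. The cause was not tested. A minimum of 100 window reads, which tests fewer genes, left 2036, 2003 and 1865 genes with a changed share at 45 min, 90 min and between them. The HAT1 shares rest on 26, 62 and 4 second-window reads. No paired analysis was possible because there is only 1 library per condition, which also leaves no replicate to omit.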

Other observations

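With the entries of ATHB2 and HAT1 included, the homeobox associated leucine zipper model was listed downstream of a second window in 12 entries of 7 genes. In 7 of these entries no homeobox model stood beside it. Apart from HAT1 and 1 HAT14 entry, these were the windows of AT-HSFB2B (448 and 648 coding bases left), AT5G12350 (974), HB-3 (439) and 1 window of ATHB13 (418). ATHB13 and HB-3 are class I HD-ZIP factors. Over the libraries in time order, ATHB13 had 128, 119 and 19 reads and was 8.08-fold lower at 90 min than in white light. Its window with 418 bases left held 33, 35 and 0 reads, the last of only 19 transcript reads. HB-3 had 60, 141 and 189 reads, with 0, 13 and 26 of them in its second window. AT-HSFB2B, a heat shock factor, had 30, 155 and 145 reads and was 4.06-fold and 4.03-fold above white light, with its first window going from 1 to 55 and 137 reads. AT5G12350 had 559, 525 and 428 reads. AT-HSFB2B overlaps 2 other annotated genes and AT5G12350 overlaps 1, so their reads are uncertain.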
